A study of Mus musculus with 27 samples.

Results

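The genes described here are 44 mouse genes of base excision repair, strand break repair and the DNA damage checkpoint, chosen by gene name. The deposited tables list 38352 genes, and 43 of the 44 names matched a row. The name Claspn matched none, and the row listed as Clspn is given apart and enters no count. The 43 genes are 19 of base excision repair (10 glycosylases, 2 abasic site endonucleases and 7 genes of strand break handling, gap filling and ligation) and 24 of break repair and checkpoint (12 of homologous recombination, 2 of break sensing, 6 of the checkpoint and 4 of end joining). These 2 sets are described apart.

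The RNA came from E14Tg2a, an established mouse embryonic stem cell line, in wild-type cells grown on gelatin in serum medium with LIF and 2i. Treated cells received 500 µM hydrogen peroxide for 30 min (the treatment protocol gives this unit, and the design text of the series gives mM), after which the medium was exchanged for spent medium of untreated cells. They were collected at 0.5 h (directly after the exposure), 2, 4, 6, 8, 10 and 24 h, and untreated cells at 0 h and 24 h, with 3 poly(A) RNA libraries in each of these 9 groups, 27 in all. The times from 0.5 to 10 h were compared with untreated 0 h and the 24 h time with untreated 24 h. No group had a medium change without peroxide, and time in culture was matched at 24 h alone. The labels call replicates 1, 2 and 3 biological replicates of independent time courses in this cell line, and below they are always given in that order.

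Hydrogen peroxide oxidises DNA bases and breaks the sugar-phosphate backbone. In base excision repair a glycosylase removes the damaged base, an endonuclease cuts the abasic site, and a polymerase and a ligase held together by a scaffold close the gap. Breaks through both strands are sensed by the Mre11, Rad50 and Nbn complex, signalled by the kinases Atm and Atr, and repaired by homologous recombination, which dividing embryonic stem cells use heavily, or by end joining of the broken ends.

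Values are FPKM, that is fragments scaled by transcript length and by the total mapped, so levels can be compared between genes. Gene positions are from GENCODE M21 on build GRCm38, the build named in the submitters' processing notes as mm10. Changes are treated minus untreated on the log2(FPKM + 1) scale, with a standard error (SE), and they understate the change of genes near 1 FPKM. A gene was called changed at an adjusted p below 0.05 in limma's moderated test, fitted over all 13614 genes that reached 1 FPKM in at least 3 libraries, with Benjamini-Hochberg adjustment over these genes. All 43 members passed this filter. Neil2 and Neil3 passed it only through treated groups in which they were high, so their calls are given as a description. In bulk RNA, fewer cells expressing a gene and less RNA per cell cannot be told apart.

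Some libraries stood apart, and this touches most results on break repair. Over all genes, untreated 0 h replicate 3, 2 h replicate 1, 8 h replicate 3 and 10 h replicate 3 favoured GC-rich transcripts. Their deviation from untreated 0 h replicates 1 and 2 rose by 0.357, 0.321, 0.192 and 0.203 log2 units per 10 points of GC content, against -0.0205 to 0.0840 in the other libraries of these 4 groups. All 3 libraries at 4 h (0.130 to 0.205) and replicates 1 and 3 of untreated 24 h (0.178 and 0.110) carried the same trend to a lesser or like degree, against -0.0267 to 0.0505 in the 0.5 h and 24 h treated libraries. Transcripts of the break repair and checkpoint members had a median GC content of 45.7% and a median length of 4899 bases, against 49.8% and 2837 bases in all tested genes with a transcript model. Those of the base excision members had 49.9% and 3099 bases. In untreated 0 h replicate 3, 22 of 24 break repair and checkpoint members lay below both other replicates, and so did 9 of 19 base excision members and 56.3% of all tested genes. Over the 43 members, the deviation of untreated 0 h replicate 3 followed GC content (Pearson r 0.588) less closely than log2 transcript length (-0.702). The trend is named by GC content below, and the parts of GC content and length were not told apart. Results are therefore given with all libraries, without these 4 and, where it ended a call, with a correction for GC content and length. Relative depth differed little (0.981 to 1.10 times that of untreated 0 h replicate 1). Embryonic stem cell markers summed to 2338 to 4402 FPKM in every library, with 3378 to 4402 in untreated 0 h cells and 2338 to 2988 at 10 h. Hepatocyte markers summed to 49.8 to 71.1 FPKM at 0.5 h, 46.1 to 62.2 in untreated 24 h, and up to 50.6 and 65.8 in libraries at 6 h and 8 h, against 2.92 to 8.65 elsewhere, and fibroblast markers to at most 2.32.

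**Figure D1:**
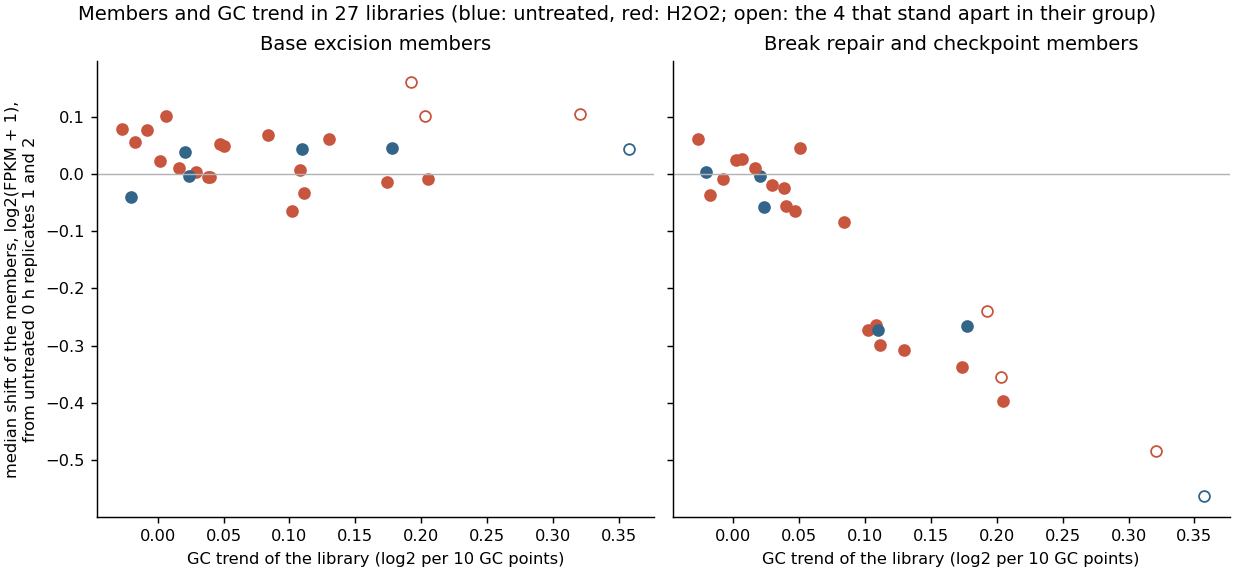
Median shift of the members in each of the 27 libraries from untreated 0 h replicates 1 and 2 (vertical axis, log2(FPKM + 1)) against the library's GC trend (horizontal axis, log2 units per 10 points of GC content). The break repair and checkpoint median lay at -0.56 in untreated 0 h replicate 3 and at -0.48 in 2 h replicate 1, whereas the base excision median stayed between -0.06 and 0.16 in all libraries.

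The plot of medians against the GC trend shows both sets. The median of the base excision members stayed near that of untreated 0 h replicates 1 and 2 at every time, while the break repair and checkpoint median was at -0.24 or lower in each library whose GC trend was 0.102 or more, treated or not. At 6 h, where the trend was 0.102 to 0.111, this median lay at -0.27, -0.30 and -0.26 in the 3 libraries.

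No member was called at 0.5 h or 2 h, when 0.0147% and 0.499% of all tested genes were called higher and 0.0661% and 0.566% lower. At 4 h 4 members were called higher and 4 lower, or 9.30% each way, beside 14.2% and 12.1% of all tested genes. At 6 h the counts were 8 and 8, or 18.6% each way, beside 22.3% and 20.0%. At 8 h 8 members (18.6%) were called higher and 4 (9.30%) lower, beside 29.2% and 11.6%, and at 10 h 7 (16.3%) and 5 (11.6%), beside 22.2% and 9.43%. At 24 h 3 members (6.98%) were called higher and 1 (2.33%) lower, beside 8.63% and 4.28%. Between the untreated groups no member was called, and 0.426% of tested genes were called higher and 0.279% lower at 24 h. The higher counts include Neil2 at 4, 6, 8 and 10 h and Neil3 at 10 h, which passed the filter only through treated groups.

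Without the 4 libraries the counts of 42 members (Neil3 no longer passed the filter) changed most for lower calls at 4 and 6 h and for higher calls at 24 h. At 4 h 4 members (9.52%) were then higher and 23 (54.8%) lower, beside 23.1% and 28% of all tested genes. At 6 h 8 (19.0%) were higher and 21 (50%) lower, beside 25.7% and 31%. At 8 h 11 (26.2%) were called each way, beside 31% and 17.8%. At 10 h 9 (21.4%) were higher and 8 (19.0%) lower, beside 25.7% and 14.4%, and at 24 h 20 (47.6%) and 5 (11.9%), beside 33.5% and 18.4%. Whether these shares differ from those of all genes was not tested. Untreated 24 h also differed from untreated 0 h in this fit, with no member higher and 13 (31.0%) lower, beside 11.9% and 18.7% of all tested genes. Of these 13, 12 were break repair or checkpoint genes, and untreated 24 h replicates 1 and 3 are libraries with the GC trend. With the correction for GC content and length added to this fit, 5 members were higher and 16 lower at 4 h (beside 22.4% and 26.1% of all tested genes), 10 and 20 at 6 h (27.6% and 31.6%), 14 and 6 at 24 h (27.8% and 16%), and 2 and 7 between the untreated groups (8.56% and 11.9%). A fit to only the libraries of each comparison called 1, 6, 3, 1 and 17 members at 4, 6, 8, 10 and 24 h. For this fit the shares of all tested genes were not computed. Calls this fit ended include Smug1 at 6 and 10 h, Ogg1 at 6 h and Apex1 and Ung at 10 h. It also ended those of Bard1 at 4, 8 and 10 h, Brca2 at 4 and 6 h and Xrcc2 at 8 and 10 h. Those of Xrcc1 at 4, 8 and 10 h and all of Xrcc5 and Xrcc6 were lost too. With no filter on low values the calls of Brca2 at 4 h, Lig3 at 6 h, Bard1 and Xrcc2 at 10 h and Bard1, Rad50 and Rbbp8 at 24 h were lost (adjusted p 0.0504 to 0.0900). Over the 7 treated times and with all libraries, 13 members (Neil2 and Neil3 among them) were higher at 1 or more times and 11 lower. Of these, 1 (Bard1) was both, and 20 members were never called.

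**Figure D2:**
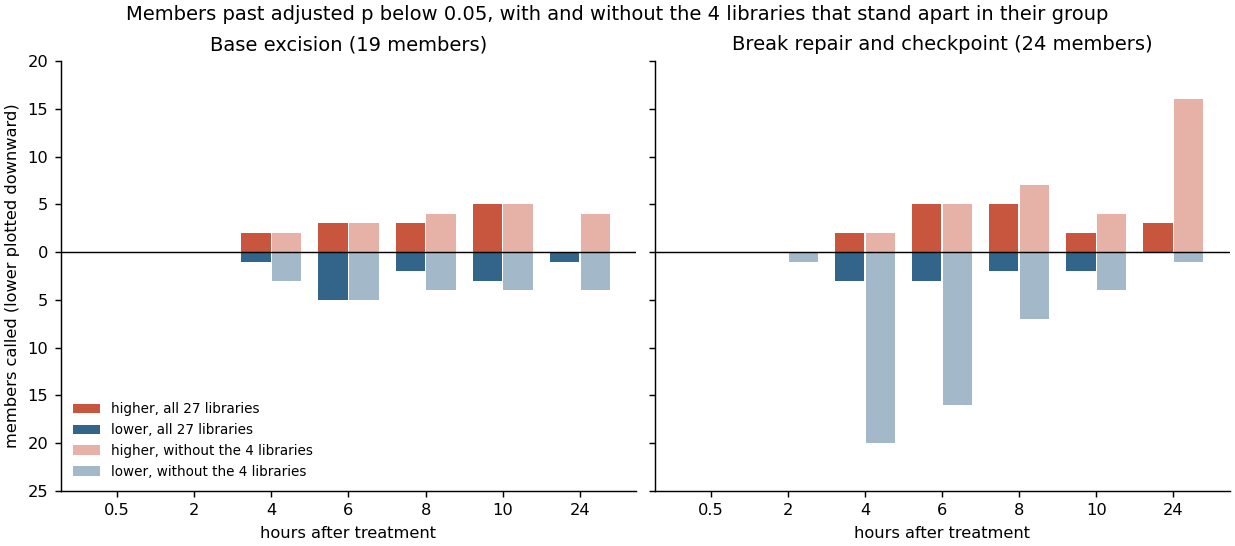
Members called higher (red, upward) and lower (blue, downward) at each time in hours, for the 19 base excision members and the 24 break repair and checkpoint members. Dark bars are counts with all 27 libraries and pale bars counts without the 4 libraries that stand apart: lower calls of break repair members at 4 h went from 3 to 20, those of base excision members from 1 to 3.

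Base excision repair genes were called in both directions. Xrcc1 and Smug1 rose and Apex1, Apex2, Ogg1, Parp2 and Lig3 fell within 4 to 10 h. With all libraries, only Apex1 of these was still called at 24 h. Among the 19 genes, 2 were called higher and 1 lower at 4 h, 3 and 5 at 6 h, 3 and 2 at 8 h, 5 and 3 at 10 h, and 0 and 1 at 24 h. The shares of all tested genes at these times were 14.2% and 12.1%, 22.3% and 20.0%, 29.2% and 11.6%, 22.2% and 9.43%, and 8.63% and 4.28%. Leaving Neil2 and Neil3 aside, the higher calls were 1, 2, 2, 3 and 0 of 17. Without the 4 libraries, none of which is from 24 h, 4 base excision members were higher and 4 lower at 24 h, beside 33.5% and 18.4% of all tested genes. The median change of the 19 stayed between -0.10 and 0.05 at every time with all libraries.

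The glycosylases find and excise damaged bases. Ogg1 (chr6:113326972-113335068, plus strand), which removes 8-oxoguanine, stood at 5.71, 6.21 and 7.82 FPKM in untreated 0 h cells, at 6.16, 6.21 and 5.49 at 0.5 h and at 6.87, 6.30 and 7.30 at 2 h. It then read 5.92, 5.55 and 5.38 at 4 h, 4.22, 4.09 and 4.83 at 6 h and 5.05, 5.49 and 7.35 at 8 h. Later values were 6.58, 6.23 and 7.43 at 10 h, 6.60, 6.87 and 5.96 at 24 h and 7.56, 5.96 and 7.13 in untreated 24 h cells. All 3 libraries at 6 h lay below every other library of the series. The change at 6 h was -0.49 ± 0.114 (SE) with a limma adjusted p of 0.00149, and -0.37 without the 4 libraries. From 6 to 10 h Ogg1 rose again by 0.53 ± 0.114 (SE), with a limma adjusted p of 0.00108.

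Smug1 (chr15:103153290-103167092, minus strand), a uracil glycosylase that also removes oxidised pyrimidines, moved the other way. It measured 3.29, 3.41 and 2.43 FPKM in untreated 0 h cells, 3.61, 3.78 and 3.89 at 0.5 h, 2.85, 3.69 and 3.65 at 2 h and 3.38, 3.91 and 3.76 at 4 h. Values then were 4.87, 3.99 and 4.30 at 6 h, 5.35, 4.96 and 4.64 at 8 h and 5.29, 4.74 and 4.47 at 10 h. They ended at 4.21, 4.09 and 4.04 at 24 h, against 3.18, 3.72 and 2.89 in untreated 24 h cells. From 6 to 10 h every treated library lay above every untreated one. Changes were 0.42 ± 0.0991 (SE), 0.57 ± 0.0991 (SE) and 0.54 ± 0.0991 (SE) at 6, 8 and 10 h (limma adjusted p 0.00165, 9.78e-05 and 0.000305). The change of 0.27 at 24 h missed the threshold (adjusted p 0.0776) and passed it without the 4 libraries (adjusted p 0.00435).

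Neil2 (chr14:63182443-63193856, minus strand), a glycosylase for oxidised bases in open DNA, was near the limit of the tables. It read 0.367, 0.399 and 0.351 FPKM in untreated 0 h cells, 0.587, 0.439 and 0.393 at 0.5 h, 0.396, 0.449 and 0.473 at 2 h and 0.894, 0.690 and 0.643 at 4 h. It then reached 1.10, 1.13 and 1.21 at 6 h, 1.30, 1.53 and 1.10 at 8 h and 1.23, 1.34 and 1.40 at 10 h. At 24 h it was 0.653, 0.496 and 0.674, against 0.530, 0.433 and 0.522 in untreated 24 h cells. The treated libraries from 4 to 10 h lay above all untreated libraries, and those at 24 h overlapped untreated 24 h. The difference from untreated 0 h was 0.76 ± 0.0751 (SE) at 10 h, given with no test because Neil2 passed the filter through these treated groups. The genes whose 9 group means followed those of Neil2 most closely were Apbb3 (Pearson r 0.987), Ppfia4 (0.985) and Gramd4 (0.984, each over 9 group means).

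Of the other glycosylases, Neil3, which acts on oxidised bases in single-stranded DNA, was listed at 0.682 ± 0.139 FPKM (mean ± SD, n = 3) in untreated 0 h cells and 1.19 ± 0.0372 at 10 h. Its difference at 10 h (0.38 ± 0.0765 (SE)) is likewise given with no test, since it was above 1 FPKM only there. Ung, the main uracil glycosylase, was lower at 10 h, at 16.1 ± 0.223 against 20.3 ± 2.24 FPKM, a change of -0.32 ± 0.0744 (SE) with a limma adjusted p of 0.00257. Mutyh, which removes adenine paired with 8-oxoguanine, Nthl1 and Neil1, which remove oxidised pyrimidines, Mpg, which removes alkylated bases, and Tdg, which removes thymine and modified cytosines at CpG, were not called at any time with all libraries. Of these, Tdg had the widest shift, 0.50 at 6 h, which was 0.11 without the 4 libraries. When untreated 0 h replicate 1 alone was left out, Mutyh, Neil1 (-0.35) and Nthl1 (-0.44) were called lower at 10 h. Without untreated 0 h replicate 2 alone, Mutyh was lower at 10 h as well, and Tdg higher at 6 h (0.76).

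Abasic site endonucleases were the role with the largest fall. Apex1 (chr14:50924968-50927139, plus strand), the main enzyme of this step and also a redox factor for transcription factors, had the highest mean level of all members in untreated 0 h cells. It stood at 152, 161 and 137 FPKM in untreated 0 h cells, 133, 156 and 148 at 0.5 h, 173, 153 and 146 at 2 h and 134, 132 and 129 at 4 h. It was at 79.5, 85.7 and 83.5 at 6 h, 81.5, 91.2 and 88.3 at 8 h and 98.0, 94.8 and 109 at 10 h. At 24 h it measured 128, 126 and 128, against 178, 147 and 161 in untreated 24 h cells. Every library at 6, 8, 10 and 24 h lay below every untreated library. Changes were -0.84 ± 0.0827 (SE), -0.78 ± 0.0827 (SE) and -0.57 ± 0.0827 (SE) at 6, 8 and 10 h, with limma adjusted p of 3.81e-08, 2.30e-07 and 2.30e-05. The change at 24 h was -0.34 ± 0.0827 (SE) with a limma adjusted p of 0.00999, and this call was lost with a correction for GC content and length (-0.18, adjusted p 0.213). It was also lost without untreated 24 h replicate 1 (adjusted p 0.0721). Group means of Ahsa1, Wdr55 and Acot9 followed Apex1 most closely (Pearson r 0.995, 0.995 and 0.992 over 9 group means). Apex2, a nuclear and mitochondrial relative that mainly trims 3′ ends, was at 2.48 ± 0.0861 FPKM in untreated 0 h cells. It was lower earlier, with changes of -0.42 ± 0.0580 (SE) at 4 h and -0.32 ± 0.0580 (SE) at 6 h (limma adjusted p 1.07e-05 and 0.000128), and was not called from 8 h on.

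The promoter of Apex1 is shown because Apex1 had the largest fall. It is the RefSeq window from 250 bases before to 50 after the start of transcription, in build GRCm38.p6 at chr14:50924699-50924998, plus strand, 5′ to 3′ on the gene's strand, with the CCAAT motif in capitals.
Apex1: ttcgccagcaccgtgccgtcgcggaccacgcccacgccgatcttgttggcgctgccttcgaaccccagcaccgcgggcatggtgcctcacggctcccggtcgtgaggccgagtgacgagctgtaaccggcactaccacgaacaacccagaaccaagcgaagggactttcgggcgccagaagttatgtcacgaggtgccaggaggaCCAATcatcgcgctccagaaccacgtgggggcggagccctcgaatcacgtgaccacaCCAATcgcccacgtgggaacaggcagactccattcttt
CCAAT, a binding motif of NF-Y, was found at 2 places in this window and in 9 of the 16 base excision promoters matched in RefSeq (56.2%), beside 44.3% of the 9309 tested genes with a promoter.

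Genes that hold and close the gap were also called in both directions. Xrcc1 (chr7:24546289-24573440, plus strand), the scaffold for Lig3 and Polb, read 17.9, 18.2 and 24.7 FPKM in untreated 0 h cells, 19.5, 18.9 and 18.8 at 0.5 h and 24.3, 19.2 and 20.7 at 2 h. It rose to 30.0, 27.8 and 29.0 at 4 h, 33.4, 30.9 and 31.7 at 6 h and 29.2, 28.8 and 34.7 at 8 h. It was at 25.7, 24.2 and 29.9 at 10 h, 19.2, 19.8 and 20.2 at 24 h and 20.0, 16.5 and 19.1 in untreated 24 h cells. From 4 to 8 h all 9 treated libraries lay above all untreated ones, and the GC-favouring untreated 0 h replicate 3 was the highest untreated library. Changes at 4, 6, 8 and 10 h were 0.51 ± 0.109 (SE), 0.65 ± 0.109 (SE), 0.59 ± 0.109 (SE) and 0.38 ± 0.109 (SE) (limma adjusted p 0.00121, 5.27e-05, 0.000177 and 0.0102). Leaving the 4 libraries out gave 0.65, 0.79, 0.65 and 0.44. The 10 h call was lost when 10 h replicate 3 alone was left out (adjusted p 0.0515) and with median-of-ratios scaling (0.25, adjusted p 0.178).

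Lig3 (chr11:82781108-82804274, plus strand), the ligase that seals the nick, measured 9.60, 7.61 and 4.55 FPKM in untreated 0 h cells, 9.96, 7.85 and 8.42 at 0.5 h and 5.14, 9.93 and 7.32 at 2 h. It was at 4.89, 6.29 and 5.24 at 4 h, 4.26, 4.18 and 3.92 at 6 h and 5.25, 5.85 and 5.69 at 8 h. It then read 6.28, 6.43 and 3.68 at 10 h, 9.28, 9.65 and 9.78 at 24 h and 7.17, 9.23 and 5.37 in untreated 24 h cells. The 6 h libraries were low and close together, but untreated 0 h replicate 3 lay near them. The change at 6 h was -0.64 ± 0.219 (SE) with a limma adjusted p of 0.0226, and -0.90 (adjusted p 6.81e-05) without the 4 libraries. Leaving out untreated 0 h replicate 1 or 2, or 6 h replicate 3, ended the call (adjusted p up to 0.129).

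Parp1 (chr1:180568924-180601254, plus strand), the poly(ADP-ribose) polymerase that detects strand breaks, was the second most abundant member in untreated 0 h cells. In treated cells at 4, 6, 8 and 24 h it lay above Apex1. It read 143, 141 and 82.2 FPKM in untreated 0 h cells, 142, 142 and 144 at 0.5 h, 100.4, 145 and 148 at 2 h and 137, 148 and 142 at 4 h. It was at 136, 136 and 133 at 6 h, 115, 121 and 105 at 8 h and 112, 101 and 88.9 at 10 h. At 24 h it stood at 149.7, 153 and 151, against 129, 141 and 116 in untreated 24 h cells. Untreated 0 h replicate 3 lay below every other library, and the 8 and 10 h libraries lay between it and the other untreated replicates, so no change was called with all libraries. With the 4 libraries left out Parp1 was lower at 8 h (-0.26 ± 0.0668 (SE), limma adjusted p 0.00353) and 10 h (-0.41 ± 0.0668 (SE), 0.000112) and higher at 24 h (0.23 ± 0.0546 (SE), 0.00191). The fall from 6 to 10 h, for which the untreated cells enter only the shared estimate of spread, was called in both fits (-0.42 ± 0.158 (SE) with a limma adjusted p of 0.0452, and -0.34 without the 4 libraries).

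Parp2, a related polymerase, moved by small steps, from 22.4 ± 1.29 FPKM in untreated 0 h cells to 20.1 ± 0.758, 19.2 ± 0.648 and 19.0 ± 1.58 at 6, 8 and 10 h. The changes were -0.15 ± 0.0575 (SE), -0.21 ± 0.0575 (SE) and -0.23 ± 0.0575 (SE) (limma adjusted p 0.0368, 0.00579 and 0.00415), and leaving out untreated 0 h replicate 2, 6 h replicate 2 or 6 h replicate 3 ended the 6 h call. It was also lost with the correction for GC content and length (-0.08, adjusted p 0.218), and with this correction and the 4 libraries left out (adjusted p 0.0588). Polb, the polymerase that fills the gap, rose at 10 h alone, to 8.02 ± 0.824 from 6.18 ± 0.589 FPKM, a change of 0.33 ± 0.0784 (SE) with a limma adjusted p of 0.00284. This call was lost with the correction for GC content and length (0.26, adjusted p 0.0960) and with median-of-ratios scaling (0.21, adjusted p 0.127). Parg, which removes poly(ADP-ribose), and Aptx, which cleans blocked DNA ends, were not called at any time with all libraries. Parg was at 17.0 ± 0.766 FPKM at 6 h against 12.1 ± 4.73 in untreated 0 h cells, with replicate 3 of the latter low.

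**Figure D3:**
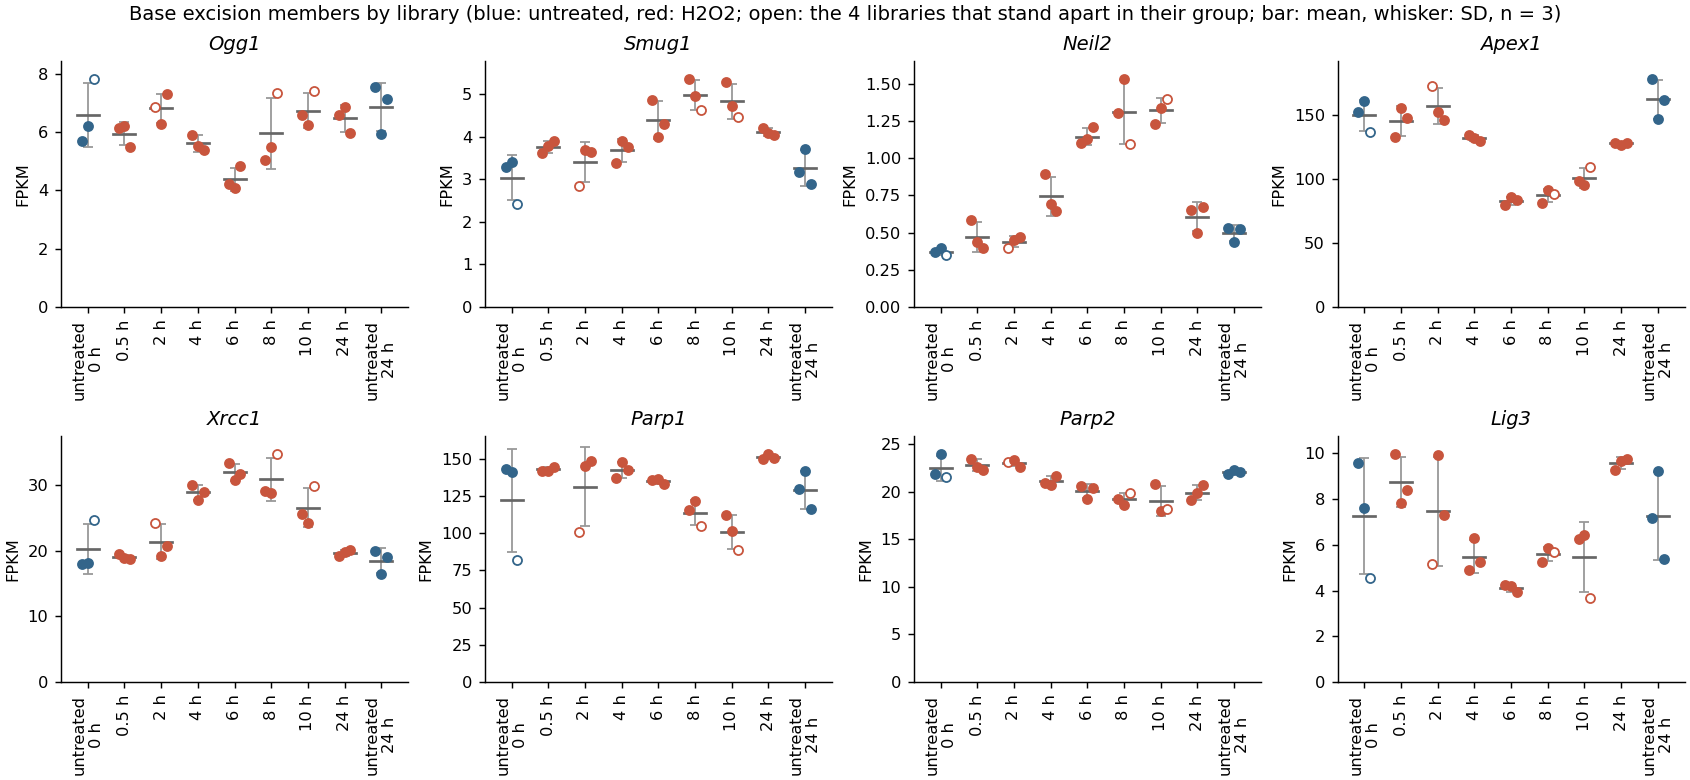
FPKM of 8 base excision members in each library (vertical axis) by group (horizontal axis, untreated blue, treated red). Bars are means and whiskers SD of 3 libraries, and open points are the 4 libraries that stand apart: Apex1 lies at 79.5 to 109 FPKM from 6 to 10 h against 137 to 178 in untreated cells, and Xrcc1 at 27.8 to 34.7 from 4 to 8 h against 16.5 to 24.7.

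Among break repair and checkpoint genes, Xrcc2, Xrcc3, Rad52 and Palb2 were called higher at 6 and 8 h and Bard1 at 8 h. Rad51c and Brca2 were called lower at 4 and 6 h, Bard1 at 4 h, and Xrcc5 and Xrcc6 at 8 and 10 h. Several of these calls, such as those of Palb2 and Brca2 and the 8 h call of Rad52, did not hold in every fit, as given below. Of the 24, 2 were called higher and 3 lower at 4 h, 5 and 3 at 6 h, 5 and 2 at 8 h, 2 and 2 at 10 h, and 3 and 0 at 24 h. The shares of all tested genes at these times were 14.2% and 12.1%, 22.3% and 20.0%, 29.2% and 11.6%, 22.2% and 9.43%, and 8.63% and 4.28%. Without the 4 libraries the counts of the 24 became 2 and 20, 5 and 16, 7 and 7, 4 and 4, and 16 and 1, beside 23.1% and 28%, 25.7% and 31%, 31% and 17.8%, 25.7% and 14.4%, and 33.5% and 18.4% of all tested genes. The median change of the 24 at 4 h was -0.13 with all libraries and -0.34 without the 4, and at 6 h it was -0.04 and -0.28. With the correction for GC content and length it was -0.12 at both times, with 9 members called lower at 4 h and 11 at 6 h, beside 16.6% and 25.2% of all tested genes.

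Homologous recombination genes moved in both directions at the same time. Xrcc2 (chr5:25689812-25705825, minus strand), a homologous recombination factor, measured 4.82, 5.17 and 2.98 FPKM in untreated 0 h cells, 4.82, 5.14 and 5.08 at 0.5 h and 2.89, 3.92 and 3.71 at 2 h. It went from 4.02, 3.82 and 3.75 at 4 h to 7.60, 7.39 and 8.52 at 6 h and 7.17, 7.42 and 6.38 at 8 h. It was then at 6.22, 6.08 and 4.96 at 10 h, 5.54, 5.66 and 5.77 at 24 h and 4.27, 4.98 and 4.29 in untreated 24 h cells. All 6 libraries at 6 and 8 h exceeded every untreated library. Changes were 0.76 ± 0.123 (SE) and 0.61 ± 0.123 (SE) at 6 and 8 h (limma adjusted p 3.49e-05 and 0.000452), and 0.56 and 0.47 without the 4 libraries. The smaller change at 10 h, 0.36 ± 0.123 (SE) with a limma adjusted p of 0.0280, was lost when untreated 0 h replicate 3, 10 h replicate 1 or 10 h replicate 2 was left out (adjusted p up to 0.227).

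Rad52 (chr6:119902698-119922828, plus strand), which anneals single strands, was at 2.26, 2.74 and 2.69 FPKM in untreated 0 h cells, 3.11, 2.68 and 2.94 at 0.5 h and 2.57, 2.66 and 2.40 at 2 h. It stood at 3.44, 3.36 and 2.92 at 4 h, 4.45, 4.19 and 4.43 at 6 h and 3.34, 3.10 and 3.28 at 8 h. Later it read 2.98, 2.85 and 3.10 at 10 h, 2.44, 2.83 and 2.55 at 24 h and 2.57, 2.57 and 2.60 in untreated 24 h cells. The 3 libraries at 6 h were the highest of all 27. Rad52 changed by 0.59 ± 0.0666 (SE) at 6 h, with a limma adjusted p of 2.81e-07, and by 0.62 without the 4 libraries. It also rose by 0.25 at 4 h and 0.25 at 8 h (adjusted p 0.00666 and 0.00452), and correction for GC content and length ended both calls (adjusted p 0.0551 and 0.120). Median-of-ratios scaling lowered the 8 h change to 0.13 and ended that call (adjusted p 0.175).

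Xrcc3, the partner of Rad51c, rose from 4.96 ± 0.666 FPKM in untreated 0 h cells to 7.21 ± 0.717 at 6 h and 7.15 ± 0.636 at 8 h. Its changes were 0.46 ± 0.0827 (SE) and 0.45 ± 0.0827 (SE), with limma adjusted p of 9.92e-05 and 0.000167, and at 4 h a change of 0.25 was called (adjusted p 0.0274) and lost when untreated 0 h replicate 1, 4 h replicate 2 or 4 h replicate 3 was left out (adjusted p up to 0.150). The 4 h call was also lost with the correction for GC content and length (0.21, adjusted p 0.0818), with this correction and the 4 libraries left out (0.10, adjusted p 0.313) and with median-of-ratios scaling (0.21, adjusted p 0.0717). Palb2, which links Brca1 to Brca2, was at 2.74 ± 0.748 FPKM in untreated 0 h cells, 2.14 ± 0.148 at 4 h and 3.91 ± 0.137 at 6 h. It was called higher at 6 and 8 h (0.41 ± 0.128 (SE) and 0.45 ± 0.128 (SE), limma adjusted p 0.0127 and 0.00794). Leaving out untreated 0 h replicate 3 alone lowered these changes to 0.23 and 0.27 and ended both calls. Without all 4 libraries they were called again, at 0.23 and 0.33, and Palb2 was called lower at 4 h (-0.41, adjusted p 8.84e-05).

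Rad51c (chr11:87376645-87404954, minus strand), a recombination protein that forms complexes with Xrcc3 and with Xrcc2, fell while these partners rose. It read 4.00, 3.63 and 3.52 FPKM in untreated 0 h cells, 4.27, 3.40 and 3.86 at 0.5 h and 3.83, 3.72 and 4.00 at 2 h. It was at 2.70, 2.67 and 2.74 at 4 h, 1.68, 1.75 and 2.02 at 6 h and 3.10, 3.05 and 3.40 at 8 h. It returned to 3.72, 3.72 and 3.80 at 10 h and 3.32, 3.46 and 3.46 at 24 h, against 3.57, 4.32 and 3.84 in untreated 24 h cells. The libraries at 4, 6 and 8 h all lay below every untreated library, and untreated 0 h replicate 3 lay close to the other replicates for this gene. Changes were -0.35 ± 0.0702 (SE) at 4 h and -0.74 ± 0.0702 (SE) at 6 h (limma adjusted p 0.000659 and 2.16e-08), and -0.38 and -0.77 without the 4 libraries. The return from 6 to 10 h measured 0.75 ± 0.0702 (SE) with a limma adjusted p of 4.26e-08.

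Brca2 (chr5:150522630-150570329, plus strand), a recombination protein and tumour suppressor, measured 9.92, 8.91 and 4.10 FPKM in untreated 0 h cells, 10.1, 8.90 and 8.57 at 0.5 h and 4.26, 6.87 and 6.77 at 2 h. It was at 3.43, 4.56 and 4.14 at 4 h, 4.22, 3.65 and 3.79 at 6 h and 6.75, 5.92 and 4.18 at 8 h. It then read 7.63, 8.80 and 5.45 at 10 h, 8.45, 8.998 and 8.68 at 24 h and 4.88, 6.61 and 4.48 in untreated 24 h cells. Untreated 0 h replicate 3, 2 h replicate 1 and replicates 1 and 3 of untreated 24 h lay between 4.10 and 4.88, at or near the 3.43 to 4.56 of the 4 and 6 h libraries. Changes were -0.71 ± 0.225 (SE) at 4 h and -0.75 ± 0.225 (SE) at 6 h (limma adjusted p 0.0225 and 0.0104), and -1.05 and -1.09 without the 4 libraries. With the correction for GC content and length they were -0.62 and -0.85 (adjusted p 2.90e-07 and 9.97e-10). Leaving out untreated 0 h replicate 1 or 2 ended both calls (adjusted p up to 0.129 at 4 h and 0.0687 at 6 h), and leaving out 4 h replicate 1 or 3 ended that at 4 h.

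Bard1 (chr1:71027498-71103146, minus strand), the partner of Brca1, was the member called in both directions. It stood at 9.35, 9.75 and 6.84 FPKM in untreated 0 h cells, 8.63, 9.38 and 10.1 at 0.5 h and 7.25, 8.72 and 8.74 at 2 h. It measured 6.04, 5.43 and 5.83 at 4 h, 7.62, 7.41 and 7.85 at 6 h and 12.3, 12.2 and 10.6 at 8 h. It was at 11.8, 11.1 and 9.39 at 10 h, 10.3, 10.5 and 10.6 at 24 h and 8.01, 8.79 and 7.88 in untreated 24 h cells. The 4 h libraries lay below, and the 8 h libraries above, every untreated library. Changes were -0.50 ± 0.102 (SE) at 4 h and 0.41 ± 0.102 (SE) at 8 h (limma adjusted p 0.000776 and 0.00314), and -0.64 and 0.33 without the 4 libraries. The call at 10 h (0.29, adjusted p 0.0340) was lost when untreated 0 h replicate 3, 10 h replicate 1 or 10 h replicate 2 was left out. That at 24 h (0.31, adjusted p 0.0472) was lost when any of 19 single libraries was left out. Without untreated 0 h replicate 3 alone the changes were 0.26 at 8 h, still called, and 0.15 at 10 h. With the correction for GC content and length the 24 h change was 0.13 and not called (adjusted p 0.121), and the 10 h change was 0.17. Median-of-ratios scaling lowered the 8 h change to 0.26 and the 10 h change to 0.17, the latter with no call (adjusted p 0.0905).

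Brca1 (chr11:101488764-101551955, minus strand), which with Bard1 starts recombination, was not called at any time with all libraries. It read 17.3, 16.4 and 6.92 FPKM in untreated 0 h cells, 17.4, 17.1 and 16.3 at 0.5 h and 7.37, 14.3 and 15.3 at 2 h. It was at 10.2, 12.7 and 11.8 at 4 h, 15.6, 14.7 and 14.8 at 6 h and 18.9, 18.9 and 12.9 at 8 h. It ended at 17.3, 17.5 and 10.3 at 10 h, 16.5, 18.2 and 17.2 at 24 h and 10.3, 14.7 and 9.86 in untreated 24 h cells. Apart from the 4 h group, the libraries below 14.3 were the 4 that stand apart and replicates 1 and 3 of untreated 24 h. In the fit without the 4 libraries Brca1 was lower at 4 h (-0.51 ± 0.110 (SE), limma adjusted p 0.000878) and higher at 24 h (0.55 ± 0.0986 (SE), 0.000222). With the GC content and length correction on all libraries, neither change was called (adjusted p 0.523 and 0.112).

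Of the remaining recombination genes, Rbbp8, which trims broken ends, was called higher at 24 h (0.36 ± 0.117 (SE), limma adjusted p 0.0477), at 3.20 ± 0.0611 against 2.29 ± 0.236 FPKM, and leaving out any of 19 single libraries ended this call. With the correction for GC content and length its change was 0.16, still called (adjusted p 0.00988). Rad54l, which drives strand invasion, Fancd2, which marks crosslinked DNA, and Blm, a helicase that unwinds recombination intermediates, were not called at any time with all libraries. Fancd2 and Blm changed sign at 6 h between the fits (0.16 and 0.06 with all libraries, -0.22 and -0.20 without the 4, called lower only in the second), and Fancd2 did so at 4 h too (0.12 and -0.27). Leaving out untreated 0 h replicate 3 alone gave these same negative changes, with no call. Rad54l was called lower at 4 and 6 h under that omission (-0.32 at both times).

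**Figure D4:**
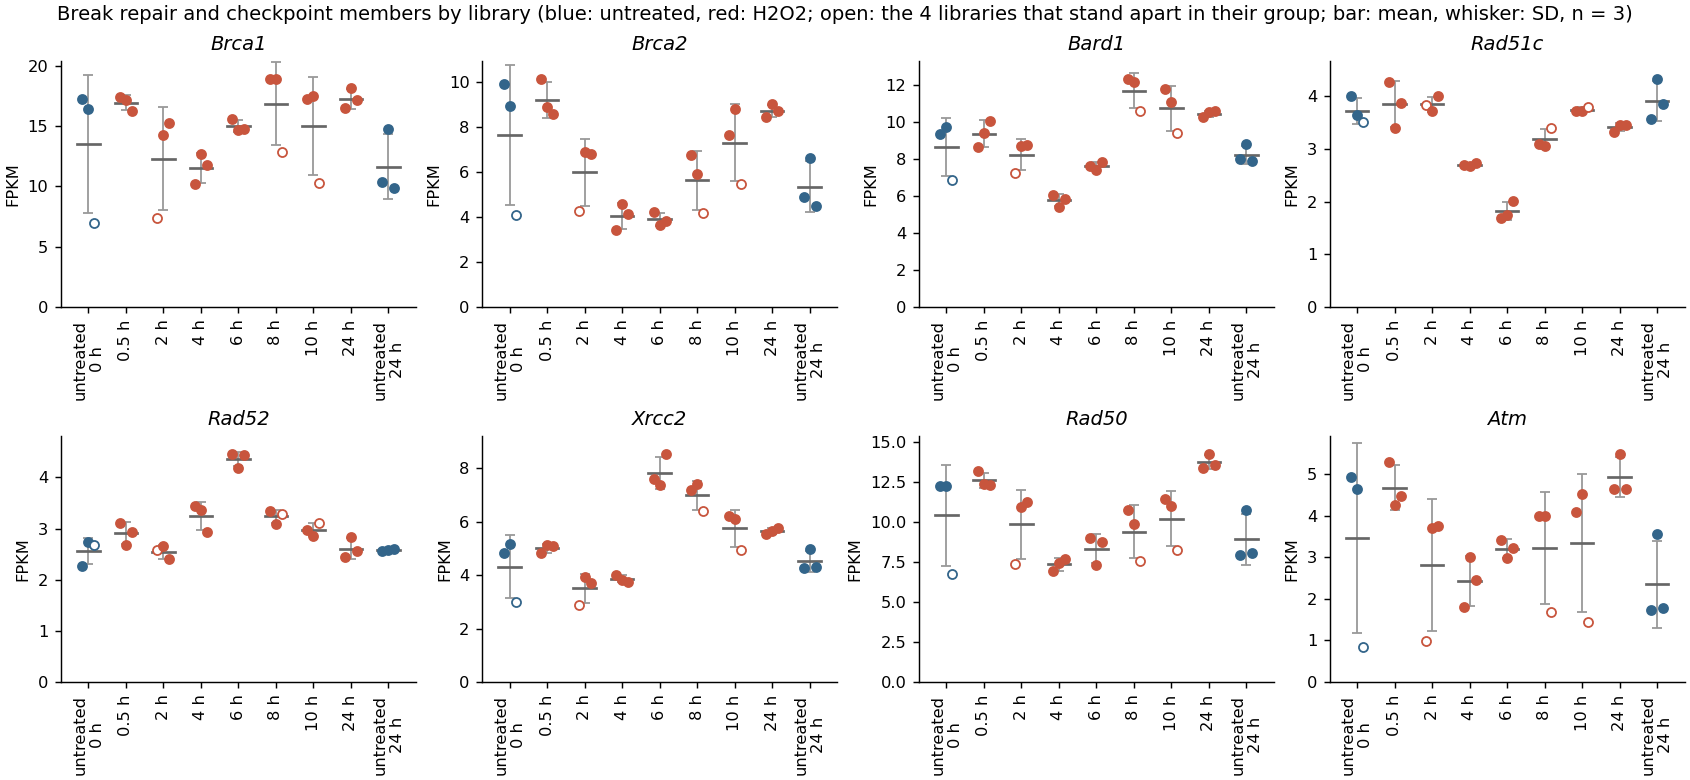
FPKM of 8 break repair and checkpoint members in each library (vertical axis) by group (horizontal axis, untreated blue, treated red). Bars are means and whiskers SD of 3 libraries, and open points are the 4 libraries that stand apart: for Atm, untreated 0 h replicate 3 lies at 0.841 FPKM against 4.94 and 4.63 in the other replicates, while for Rad51c the 3 lie between 3.52 and 4.00.

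Break sensing is represented by Rad50 and Nbn. Rad50 (chr11:53649519-53707319, minus strand), the structural ATPase of the complex, measured 12.3, 12.2 and 6.76 FPKM in untreated 0 h cells, 13.1, 12.3 and 12.3 at 0.5 h and 7.35, 10.9 and 11.2 at 2 h. It was at 6.89, 7.43 and 7.68 at 4 h, 8.97, 7.28 and 8.71 at 6 h and 10.7, 9.85 and 7.52 at 8 h. It read 11.4, 11.0 and 8.22 at 10 h, 13.4, 14.2 and 13.5 at 24 h and 7.91, 10.8 and 8.07 in untreated 24 h cells. At 24 h the treated libraries lay above all untreated ones, of which replicates 1 and 3 were low. The 24 h change was 0.58 ± 0.181 (SE) with a limma adjusted p of 0.0387, and leaving out any of the treated 24 h libraries or replicate 1 or 3 of untreated 24 h ended the call (adjusted p up to 0.145). Rad50 was also lower at 4 and 6 h without the 4 libraries (-0.67 and -0.51, adjusted p 1.49e-05 and 0.000168). Nbn, the adaptor that recruits Atm, was not called with all libraries, with 11.4 ± 0.501 FPKM at 4 h against 12.7 ± 2.05 in untreated 0 h cells. Without the 4 libraries Nbn was called lower at 4, 6 and 24 h.

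Of the 6 checkpoint genes only Chek2 was called with all libraries. Atm (chr9:53439149-53536740, minus strand), the kinase activated by double-strand breaks and by oxidation, read 4.94, 4.63 and 0.841 FPKM in untreated 0 h cells, 5.28, 4.25 and 4.48 at 0.5 h and 0.992, 3.70 and 3.75 at 2 h. It was at 1.80, 3.00 and 2.46 at 4 h, 3.42, 2.97 and 3.21 at 6 h and 4.00, 3.98 and 1.68 at 8 h. It measured 4.10, 4.51 and 1.45 at 10 h, 4.65, 5.47 and 4.64 at 24 h and 1.73, 3.56 and 1.77 in untreated 24 h cells. The 4 libraries that stand apart held the lowest value of each of their groups, and the groups from 0.5 to 10 h overlapped untreated 0 h. The change at 6 h was 0.09 with all libraries (adjusted p 0.880) and -0.46 without the 4 (adjusted p 0.0266). Leaving out untreated 0 h replicate 3 alone gave the same negative change, with no call. At 24 h it was 0.86 in both fits, with adjusted p of 0.142 and 0.000188.

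Chek1 (chr9:36708482-36727065, minus strand), the kinase that carries the Atr signal, stood at 20.2, 20.9 and 14.1 FPKM in untreated 0 h cells, 19.6, 19.6 and 21.3 at 0.5 h and 16.5, 20.6 and 20.9 at 2 h. It was at 16.4, 18.2 and 17.2 at 4 h, 16.3, 14.7 and 15.0 at 6 h and 18.6, 18.9 and 17.2 at 8 h. It read 18.2, 17.2 and 14.6 at 10 h, 18.7, 19.9 and 18.3 at 24 h and 17.2, 19.9 and 18.6 in untreated 24 h cells. The 6 h libraries lay below untreated 0 h replicates 1 and 2 and above replicate 3, so the change of -0.23 was not called (adjusted p 0.116), whereas without the 4 libraries it was -0.40 ± 0.0615 (SE) with a limma adjusted p of 2.26e-05. Chek2, the kinase downstream of Atm, was at 24.0 ± 0.411 FPKM at 6 h against 20.0 ± 2.66 in untreated 0 h cells (0.26 ± 0.0763 (SE), limma adjusted p 0.00801). Its call was lost without untreated 0 h replicate 3 (0.17, adjusted p 0.0589) and with both untreated groups as control (0.15, adjusted p 0.0683), and held without all 4 libraries (0.17, adjusted p 0.0253). Atr, Topbp1, which activates Atr, and Trp53bp1, which steers breaks toward end joining, were not called. All 3 were lower at 4 h without the 4 libraries, at -0.44, -0.41 and -0.40. Clspn, the adaptor between Atr and Chek1, was likewise not called with all libraries, with 6.42 ± 2.85 FPKM in untreated 0 h cells and 8.98 ± 1.49 at 8 h. Without the 4 libraries Clspn was lower at 4 h (-0.48) and higher at 8, 10 and 24 h (0.26, 0.29 and 0.31). With the correction for GC content and length it was called at 8 h alone (0.39, higher).

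End joining genes fell in part. Xrcc5 and Xrcc6 encode the 2 subunits of Ku, which caps broken ends. Xrcc5 was at 70.3 ± 11.0 FPKM in untreated 0 h cells, 60.4 ± 2.02 at 6 h, 54.2 ± 2.39 at 8 h and 51.4 ± 4.36 at 10 h. Xrcc6 was at 17.8 ± 2.16, 13.7 ± 0.752, 13.2 ± 0.512 and 14.5 ± 0.710 FPKM at the same times. Changes of Xrcc5 were -0.36 ± 0.0975 (SE) at 8 h and -0.43 ± 0.0975 (SE) at 10 h (limma adjusted p 0.00584 and 0.00176). Those of Xrcc6 were -0.35 ± 0.0714 (SE), -0.40 ± 0.0714 (SE) and -0.27 ± 0.0714 (SE) at 6, 8 and 10 h (limma adjusted p 0.000380, 0.000132 and 0.00598). All 5 of these calls held without the 4 libraries and were larger in size, up to -0.51 for Xrcc5 at 10 h. In a fit to only the libraries compared all 5 were lost (limma adjusted p 0.156 and 0.186 for Xrcc5 at 8 and 10 h). For Xrcc6 the adjusted p in that fit was 0.0888, 0.0847 and 0.298 at 6, 8 and 10 h. Prkdc, the kinase bound by Ku, and Lig4, the ligase of this route, were not called with all libraries. Lig4 was at 4.82 ± 0.927 FPKM at 8 h against 3.10 ± 1.38 in untreated 0 h cells (change 0.55, adjusted p 0.0505).

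**Figure D5:**
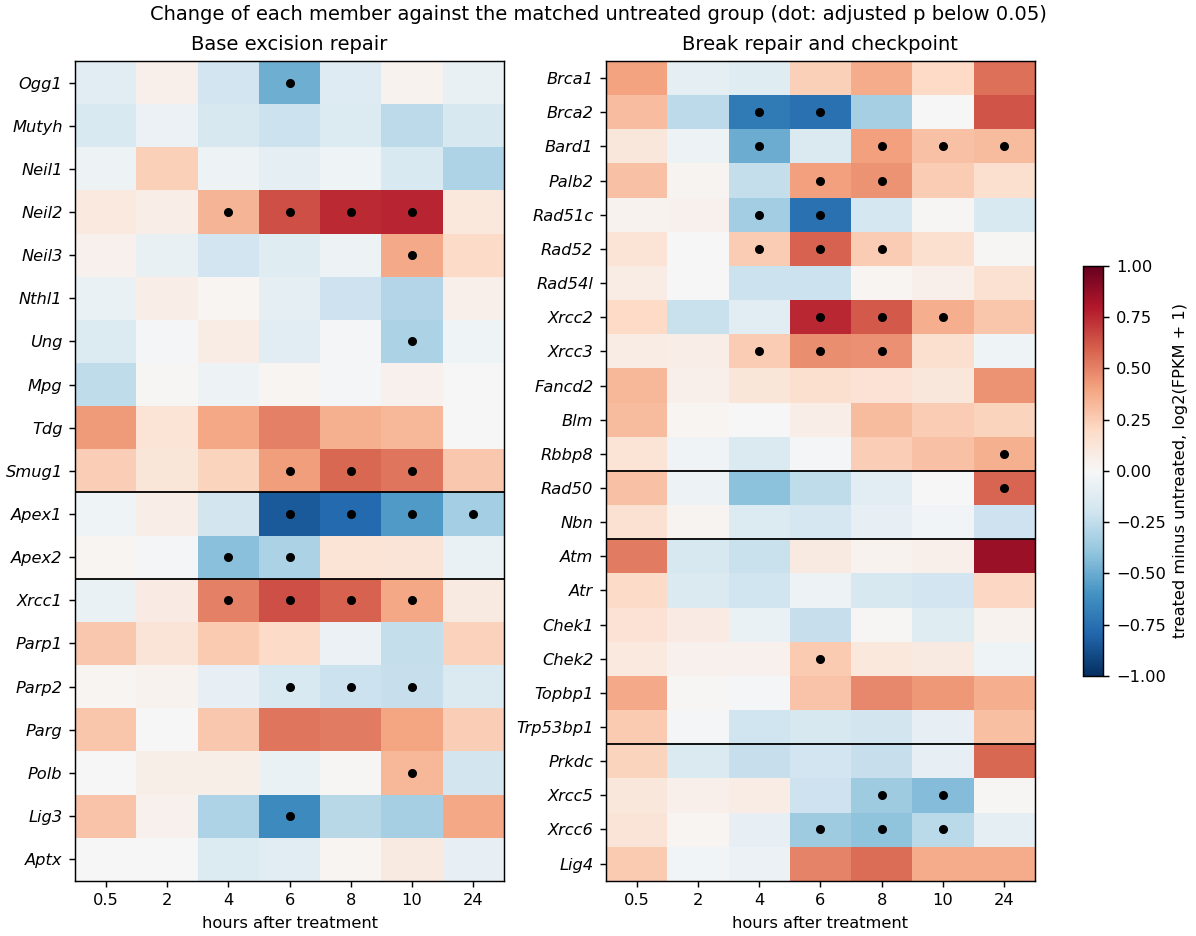
Change of each of the 43 members (rows, lines between roles) at each treated time in hours (columns), as treated minus untreated on the log2(FPKM + 1) scale, red for higher and blue for lower. Dots mark calls at an adjusted p below 0.05 with all libraries: none at 0.5 and 2 h, 16 at 6 h and 4 at 24 h.

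Between treated cells at 10 h and at 6 h, a comparison in which the untreated libraries enter only the shared estimate of spread, 11 members were higher and 5 lower (25.6% and 11.6%), beside 20.2% and 11.5% of all tested genes. Rad51c, Brca2, Ogg1, Apex2, Bard1 and Apex1 were among those that rose (0.75, 0.74, 0.53, 0.45, 0.44 and 0.28), and Rad52, Parp1, Xrcc2, Xrcc3 and Ung fell (-0.43, -0.42, -0.39, -0.30 and -0.21). Of these, Rad52, Xrcc2 and Xrcc3 had been called higher at 6 h than in untreated 0 h cells. Without 10 h replicate 3 and the other 3 libraries, 17 members (40.5%) were higher and 9 (21.4%) lower, beside 33.5% and 20.9% of all tested genes.

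The effect at 24 h, against its own control, was also tested against the effect at 10 h. This difference was positive for 1 member and negative for 2, beside 2.95% and 5.75% of all tested genes. Xrcc5 differed by 0.45 ± 0.138 (SE) and Polb by -0.51 ± 0.111 (SE), with limma adjusted p of 0.0464 and 0.00518. The third, Neil2, differed by -0.65 ± 0.106 (SE), a description only, since the 10 h group is among those that carried it past the filter. For Xrcc5, Neil2 and Polb the 24 h effect itself was 0.01, 0.10 and -0.18, with no call. In the reduced set of libraries 13 members (31.0%) differed upward and 3 (7.14%) downward, beside 13.8% and 13.5% of all tested genes. The 24 h comparison rests on untreated 24 h cells whose replicates 1 and 3 carry the GC trend and whose 3 libraries hold hepatocyte transcripts (46.1 to 62.2 FPKM, against 3.89 to 4.09 in treated 24 h cells). With the correction for GC content and length alone, 5 members were higher and 0 lower at 24 h (beside 12.8% and 5.82% of all tested genes), and the part of the hepatocyte RNA was not tested.

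Other genes of the same routes were taken from lists of well-known pathway genes, and are read beside 22.3% of all tested genes called higher and 20.0% lower at 6 h and 29.2% and 11.6% at 8 h. Of 14 further base excision and single-strand break genes 12 were tested, and 3 were called higher and 4 lower at 6 h and 5 and 2 at 8 h. Adprhl2, which removes ADP-ribose, and Mbd4, a mismatch glycosylase, rose most (0.74 ± 0.166 (SE) at 6 h and 0.61 ± 0.153 (SE) at 8 h, limma adjusted p 0.00101 and 0.00304). Nudt1, which clears oxidised nucleotides, and Hmgb1, a chromatin protein that assists repair, fell most (-0.89 ± 0.144 (SE) at 6 h and -0.70 ± 0.124 (SE) at 8 h, limma adjusted p 3.34e-05 and 0.000121). All 30 further break repair and Fanconi genes were tested, and 5 were higher and 6 lower at 6 h and 8 and 2 at 8 h. Fancb and Slx4 rose most (0.61 at 8 h and 0.61 at 6 h) and Fancl and Wrn fell most (-0.52 and -0.50, both at 6 h). Of 17 further damage signalling genes 16 were tested, with 3 higher and 4 lower at 6 h and 6 and 0 at 8 h. Rad9a, of the clamp that activates Atr, and the phosphatase Cdc25a rose most (0.74 and 0.54 at 6 h), and Etaa1, another Atr activator, and Rad1, a clamp subunit, fell most (-0.60 and -0.53 at 4 h). At 4 h, without the 4 libraries, lower calls went from 1 to 4, from 4 to 12 and from 5 to 10 in the 3 lists, beside 12.1% of all tested genes and then 28%.

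For reference, the p53 target genes Cdkn1a and Mdm2 rose more at 4 and 6 h than any called member at any time. Cdkn1a changed by 0.98 at 4 h and 0.94 at 6 h, and Mdm2 by 1.92 and 2.02. Mdm2 was still higher at 24 h (0.79 ± 0.165 (SE), limma adjusted p 0.00355), where Cdkn1a was not called (0.23, adjusted p 0.113).

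Promoter letters are given as a description. The motifs searched on both strands were the E2F-type TTCCCGCC, TTTGGCGC and TTTCCCGC (TTCCCGCC and TTTCCCGC can overlap), CCAAT, the CHR element TTTGAA, the antioxidant response core TGACNNNGC and the p53 decamer (the unit repeated in a full p53 site). An E2F-type motif was in 6 of the 18 break repair and checkpoint promoters matched (33.3%) and in 0 of 16 base excision promoters, beside 7.33% of tested genes with a promoter and 3.21% of all 32851 promoters. The 6 genes were Bard1, Brca2, Chek1, Chek2, Rad51c and Xrcc6. This p53 site was in 2 base excision promoters (12.5%; Neil1 and Neil3) and in no break repair promoter, beside 8.16%, and the antioxidant core in 1 and 3, beside 16.8%. CHR was found in Bard1 alone, beside 14.3%, and CCAAT in 9 of 18. Promoters of the 3 break repair members called lower at 4 h are printed, chosen after their values were seen, because each of these 3 genes had an E2F-type match. They are RefSeq windows in build GRCm38.p6 on the gene's strand, with motif matches in capitals: Brca2 at chr5:150522371-150522670, plus strand (E2F-type and antioxidant core), Bard1 at chr1:71102923-71103222, minus strand (E2F-type and CHR) and Rad51c at chr11:87404905-87405204, minus strand (2 overlapping E2F-type matches).
Brca2: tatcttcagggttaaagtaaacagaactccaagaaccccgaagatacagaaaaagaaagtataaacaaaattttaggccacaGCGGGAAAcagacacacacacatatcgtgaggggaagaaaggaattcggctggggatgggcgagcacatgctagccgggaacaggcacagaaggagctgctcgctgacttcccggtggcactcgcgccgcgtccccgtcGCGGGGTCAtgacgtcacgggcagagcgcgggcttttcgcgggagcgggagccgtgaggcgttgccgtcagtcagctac
Bard1: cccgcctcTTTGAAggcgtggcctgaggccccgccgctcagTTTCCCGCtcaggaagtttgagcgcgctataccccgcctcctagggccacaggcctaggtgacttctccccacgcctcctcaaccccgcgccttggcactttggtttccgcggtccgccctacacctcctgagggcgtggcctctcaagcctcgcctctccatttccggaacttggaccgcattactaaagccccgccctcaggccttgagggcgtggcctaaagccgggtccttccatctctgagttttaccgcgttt
Rad51c: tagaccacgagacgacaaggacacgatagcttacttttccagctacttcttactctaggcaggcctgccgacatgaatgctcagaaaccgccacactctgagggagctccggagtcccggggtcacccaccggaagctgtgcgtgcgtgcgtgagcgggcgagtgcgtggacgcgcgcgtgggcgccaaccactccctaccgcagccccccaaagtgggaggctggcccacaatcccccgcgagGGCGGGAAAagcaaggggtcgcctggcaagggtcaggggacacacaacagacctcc
A second RefSeq window of Rad51c held none of the motifs. Chek1, Chek2 and Xrcc6, which hold an E2F-type match as well, were not called lower at 4 h with all libraries. In that fit Chek2 was called higher at 6 h, and Xrcc6 was called lower only at later times. Bard1 was called higher at 3 times and lower at 1. The 3 printed promoters were chosen on both the call and the motif, so they cannot relate the motif to lower calls. Such a relation was not tested.

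The authors' deposited tables give q-values and a mark of significance for the same 7 treated comparisons. In the authors' deposited table, 2 members were marked at 6 h (Neil2 and Rad51c), 1 at 8 h and 1 at 10 h (Neil2 both times), 1 at 24 h (Atm) and 0 at the other times. By the authors' deposited q-values below 0.05, 5 members passed at 4 h, 9 at 6 h, 5 at 8 h, 3 at 10 h and 17 at 24 h. By q-value the authors' deposited table thus had its largest count of members at 24 h, and by the mark at 6 h. At 24 h the fit to all libraries called 4 members and a fit to the 6 libraries of that comparison alone called 17. Shares of all genes passing by q-value or in that smaller fit were not computed, so these counts are not a result about the members.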

How the data were processed

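Poly(A) RNA from 27 libraries was measured by stranded RNA-seq. The authors deposited 7 tables, 1 for each treated comparison, with FPKM values per gene and library and, per the file headers, q-values and a mark of significance. Tools listed in the submitters' processing notes, without a role, are StringTie, HISAT2, edgeR, FastQC and cutadapt, and the build is mm10. The sources used here do not say how the authors made the q-values (adjusted p-values). Tables were joined by gene identifier, and columns repeated between tables were identical. Counts were not analysed here, so absolute depth is unknown and no count test was run, and the number of replicates (3 a group) limits the precision.

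Values were taken as log2(FPKM + 1). Only genes that reached 1 FPKM in 3 or more libraries were fitted, with limma 3.58.1 in R 4.3.3 (mean-variance trend, all 27 libraries, 1 mean per group), with Benjamini-Hochberg adjustment within each of 10 comparisons. The script was tested on simulated data with known changes. The median SE of the changes was 0.130 over all tested genes in the 7 treated comparisons. GC content and length were those of the longest GENCODE M21 transcript of a gene, and the GC trend of a library is the slope over genes of its log2 deviation from untreated 0 h replicates 1 and 2. Promoters were those RefSeq gives for GRCm38.p6: 34 of the 43 members matched.

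Values in every library are given for the 12 called members with the largest change and for Ogg1, Apex1, Parp1, Brca1, Atm and Chek1. From each list of other pathway genes the 2 largest called rises and falls are named. Genes most like a member are the 3 with the highest correlation of group means. Promoters were to be printed for the members with the largest fall and rise. The members, the lists and the 4 libraries left out were chosen with earlier results of these data known. Alternatives were another pseudocount (0.1), no filter, a filter of 5 FPKM, a 2-fold minimum, median-of-ratios scaling, a replicate block, a control pooled from both untreated groups, fits restricted to the libraries compared, GC content and length correction, the 4 libraries left out, and each library left out in turn.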

Additional observations from a re-analysis of the deposited data

Results flagged for a closer look

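For 3 members the effect at 24 h (against untreated 24 h cells) differed from the effect at 10 h (against untreated 0 h cells) in limma's interaction contrast. The difference on the log2(FPKM + 1) scale was -0.65 for Neil2, -0.51 for Polb and 0.45 for Xrcc5, with limma adjusted p of 0.00518 and 0.0464 for the latter pair. The value of Neil2 is a description with no test, because Neil2 passed the filter on low values only through treated groups in which it was high, the 10 h group among them. Without the 4 libraries that stand apart the 3 differences were -0.62, -0.50 and 0.53. Groups of 3 libraries were not screened for single outlying values.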

How the results depend on the processing

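The counts of members called, in which Neil2 and Neil3 are included where they passed the filter, depend on the libraries used. With all libraries they were 0, 0, 8, 16, 12, 12 and 4 at 0.5, 2, 4, 6, 8, 10 and 24 h, 0 between the untreated groups, 3 for the 24 h against the 10 h effect and 16 for 10 h against 6 h. In this order, leaving out the 4 libraries gave 0, 1, 27, 29, 22, 17, 25, 13, 16 and 26. GC content and length correction gave 0, 0, 12, 25, 22, 19, 5, 1, 11 and 19. Both together, chosen after seeing the data, gave 0, 2, 21, 30, 24, 20, 20, 9, 19 and 25. Median-of-ratios scaling gave 0, 0, 10, 21, 13, 12, 6, 0, 3 and 15. No filter gave 0, 0, 7, 15, 12, 10, 1, 0, 2 and 12, and a filter of 5 FPKM, which tests fewer genes, 0, 0, 4, 10, 8, 9, 3, 0, 2 and 10. Only the libraries compared gave 0, 0, 1, 6, 3, 1, 17, 0, 1 and 12. The pseudocount of 0.1 gave 0, 0, 8, 16, 12, 12, 3, 0, 3 and 14. Both untreated groups as control gave 0, 0, 11, 20, 16 and 14 up to 10 h. A minimum change of 2-fold left 0 members in all 10 comparisons. Apart from what their construction shows, the cause of these differences was not tested. With the GC content and length correction, 17.7% of all tested genes were higher and 16.6% lower at 4 h. These shares were 25.6% and 25.2% at 6 h, 32.8% and 15.4% at 8 h and 26.1% and 12.4% at 10 h. Shares without the 4 libraries are given above. For the other alternatives of this paragraph such shares were not computed, so their counts are not a result about the members. Leaving out 1 library at a time gave 0 to 0, 0 to 1, 6 to 19, 14 to 21, 12 to 17, 9 to 16, 0 to 9, 0 to 0, 2 to 11 and 10 to 19. The 19 at 4 h, 21 at 6 h, 9 at 24 h and 11 for the difference of effects came without untreated 0 h replicate 3, and the 0 at 24 h without untreated 24 h replicate 1. A replicate block gave 0, 0, 8, 17, 14, 12, 6, 0, 3 and 17. Whether replicate numbers pair libraries was not settled. Same-numbered libraries had a mean correlation of deviations of 0.0702, over 0.1 in 35 of 108 pairs. Differently numbered libraries had a mean of -0.0284, over 0.1 in 46 of 216 pairs. On average, 15 of 27 libraries correlated best with libraries of their own number. Without the 4 libraries 4 changes reversed, becoming calls in the other direction: Fancd2 at 4 h (-0.27), Blm at 6 h (-0.20), Fancd2 at 6 h (-0.22) and Atm at 6 h (-0.46). With the GC content and length correction added, Parp1, Blm, Fancd2 and Atm at 6 h were -0.13, -0.13, -0.17 and -0.32 and Chek1 at 8 h -0.15. Without untreated 0 h replicate 3 alone the first 4 of these changes had the same values, -0.46, -0.22 and -0.20 for Atm at 6 h, Fancd2 at 6 h and Blm at 6 h (adjusted p 0.318, 0.434 and 0.314) and -0.27 for Fancd2 at 4 h (adjusted p 0.367), with no call. No change called with all libraries turned sign under any alternative run, whereas changes with no call in either fit did. Changes near 1 FPKM (Neil2, Neil3) are limited by the level itself, and with 3 libraries a group the SE (median 0.130 over all tested genes) bounds what could be called.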
